A study of Mus musculus with 6 samples.

Results

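The noncatalytic genes of the proteasome were followed in liver RNA of male C57BL/6J mice on a high-fat diet (HFD), treated with ONX-0914 or with vehicle. Members were the rows of the deposited matrix whose symbol is on a list of 42 genes, and all 42 were found among the 22851 genes of the matrix. They comprise 7 genes of the alpha ring and 4 noncatalytic genes of the beta ring of the 20S core. Another 18 belong to the 19S regulatory particle, namely 6 ATPases, 4 non-ATPase base subunits and 8 lid subunits. The remaining 13 encode 7 assembly chaperones, 3 activators or inhibitors, 2 deubiquitinases and the transcription factor NFE2L1. Both groups were of the same strain, sex and diet, and the labels name no altered allele. The treated group received ONX-0914, an inhibitor of the immunoproteasome subunit PSMB8, at 10 mg/kg under the skin every other day for 6 weeks. The labels give neither the animals' age nor the composition of the vehicle.

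The proteasome degrades proteins tagged with ubiquitin. Its 20S core is a stack of alpha and beta rings, with the outer alpha rings gating entry and the inner beta rings holding the cutting sites. The 19S particle caps the core: its lid and base recognise and strip ubiquitin, and its ring of ATPases unfolds the substrate and feeds it into the core. In mammalian cells whose proteasome activity falls, the transcription factor NFE2L1 (also called NRF1) escapes degradation, is processed, and raises transcription of proteasome genes through antioxidant response elements. The liver makes and degrades large amounts of protein and expresses the proteasome in every cell type. The comparison asks how transcripts of these genes differ in animals given a proteasome inhibitor. RNA values carry no information on proteasome protein or activity.

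There were 3 libraries per group, ONX-0914 1, 3 and 4 and vehicle 1, 2 and 4, while the design text gives 2 animals per group. Which libraries come from separate animals is not stated, so the p-values rest on the variation among libraries, which may be technical. Values are FPKM as deposited by the authors, that is reads or fragments scaled to gene length and library size. They summed to between 1041391 and 1247789 in ONX-0914 libraries and between 993264 and 1074027 in vehicle libraries. Read totals were not given; the steps between low values placed the depth, relative to vehicle 1, at 1.03, 0.857 and 0.911 in the ONX-0914 libraries 1, 3 and 4 and at 1.00, 1.29 and 1.1096 in the vehicle libraries 1, 2 and 4. ONX-0914 3 stood apart from its group: its log2 values correlated at 0.946 and 0.954 with ONX-0914 1 and 4, against 0.949, 0.958 and 0.950 with vehicle 1, 2 and 4, while ONX-0914 1 and 4 correlated at 0.976. Among the 10743 genes tested the median log2 fold change was -0.64. Values are therefore also given after median ratio scaling, which divides a library by its median ratio to the geometric mean library and places the median gene at 0.0034.

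The liver label was checked against marker genes. Hepatocyte markers summed to between 63986 and 96293 FPKM in ONX-0914 libraries and between 84747 and 90448 FPKM in vehicle libraries, sums made up mostly of Alb and Ttr. Of the 10 hepatocyte markers, Fgb (log2 fold change 1.17) and Apoa1 (0.64) were called higher as deposited and Hnf4a (-2.23) and Cps1 (-1.66) lower. Hnf4a, a hepatocyte transcription factor, was at 6.26, 40.7 and 5.94 FPKM in the ONX-0914 libraries 1, 3 and 4, against 58.5, 51.7 and 68.6 FPKM in the vehicle libraries 1, 2 and 4. Neither Hnf4a nor Cps1 was called after median ratio scaling. After that scaling 4 of the 10 hepatocyte markers were called higher and 0 lower, where 14.3% and 13.7% of all genes were. Their median log2 fold change was then 0.73, beside 0.71 for the 42 members. Each of 8 endothelial markers was lower with ONX-0914, with sums of 23.0 to 39.8 FPKM against 137 to 147 FPKM with vehicle, and 5 of 6 stellate cell markers and 4 of 7 macrophage markers were lower too, as deposited, where 43.5% of all genes tested were called lower. After median ratio scaling 7 of the 8 endothelial, 3 of the stellate and 3 of the macrophage markers were still called lower, where 13.7% of all genes were. Stellate cell markers summed to 52.9 to 114 FPKM with ONX-0914 and 240 to 308 FPKM with vehicle, and macrophage markers to 392 to 675 FPKM with ONX-0914 and 751 to 1254 FPKM with vehicle. Neutrophil markers summed to 2041, 182 and 4321 FPKM in the ONX-0914 libraries 1, 3 and 4 and to 325, 296 and 1763 FPKM in the vehicle libraries 1, 2 and 4, with none of 4 called. Lymphocyte and cholangiocyte markers summed to at most 5.63 and 4.89 FPKM with ONX-0914 and to at most 5.13 and 7.18 FPKM with vehicle, and no marker gene of any list was at 0 throughout a group. In bulk RNA fewer cells of a type and less RNA per cell cannot be told apart, and the part of cell composition in the results below was not tested.

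All 42 genes were above 1 FPKM in every library, so every one was tested. Their summed FPKM made up 0.375%, 0.347% and 0.340% of all FPKM in the ONX-0914 libraries 1, 3 and 4 and 0.365%, 0.338% and 0.337% in the vehicle libraries 1, 2 and 4, ranges that overlap. Fitted as deposited with limma on log2(FPKM + 1), at an adjusted p under 0.05, 4 rose with ONX-0914: Psmb3 of the beta ring, the ATPases Psmc2 and Psmc5, and the ubiquitin receptor Psmd4. Another 7 fell: the transcription factor Nfe2l1, the lid gene Psmd7, the chaperones Psmd5 and Psmd9, the activator Psme4, the inhibitor Psmf1 and the deubiquitinase Usp14. The 4 rises are 9.52% of the members, where 2.56% of all genes tested were called higher, and the 7 falls are 16.7%, where 43.5% of all genes were called lower. The members' median log2 fold change was -0.09, against -0.64 over all genes tested.

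Counts of calls depended on the scaling and on single libraries. With median ratio scaling 21 members were called higher and Nfe2l1 alone was called lower. These are 50% and 2.38% of the members, where 14.3% and 13.7% of all genes were called higher and lower, and the members' median was then 0.71. Without the trend over transcript length, fitted and subtracted per library, 10 were called higher and again only Nfe2l1 lower, where 9.61% and 11.7% of all genes were called. Subtracting this trend also removes each library's general shift, and the median over all genes was then 0.022. All 4 rises stayed called in both settings. As deposited, leaving out ONX-0914 3 gave 10 higher and 11 lower, where 6.89% and 60.6% of all genes were called. ONX-0914 3 alone against vehicle gave 0 higher and only Nfe2l1 lower, where 2.88% and 27.9% of all genes were called. Leaving it out after median ratio scaling, a setting chosen after seeing the data, gave 30 higher and 1 lower, where 27% and 25.7% were called. With the replicate number as a block, 7 were higher and 9 lower, where 5.62% and 55.6% were called. Leaving out ONX-0914 1 gave 1 higher and 2 lower, where 1.31% and 29.8% of all genes were called. Leaving out ONX-0914 4 gave 0 higher and 2 lower, where 1.25% and 28.2% were. Without vehicle 1, 0 were higher and 1 lower, where 0.856% and 24.1% were called. Without vehicle 2, 1 was higher and 2 lower, where 1.15% and 26.4% were called. Without vehicle 4, 1 was higher and 2 lower, where 1.03% and 27.6% were called. Quantile normalization gave 8 higher and 1 lower, where 10.4% and 12.4% of all genes were called. Nfe2l1 was called lower in each of the settings run for single genes.

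**Figure D1:**
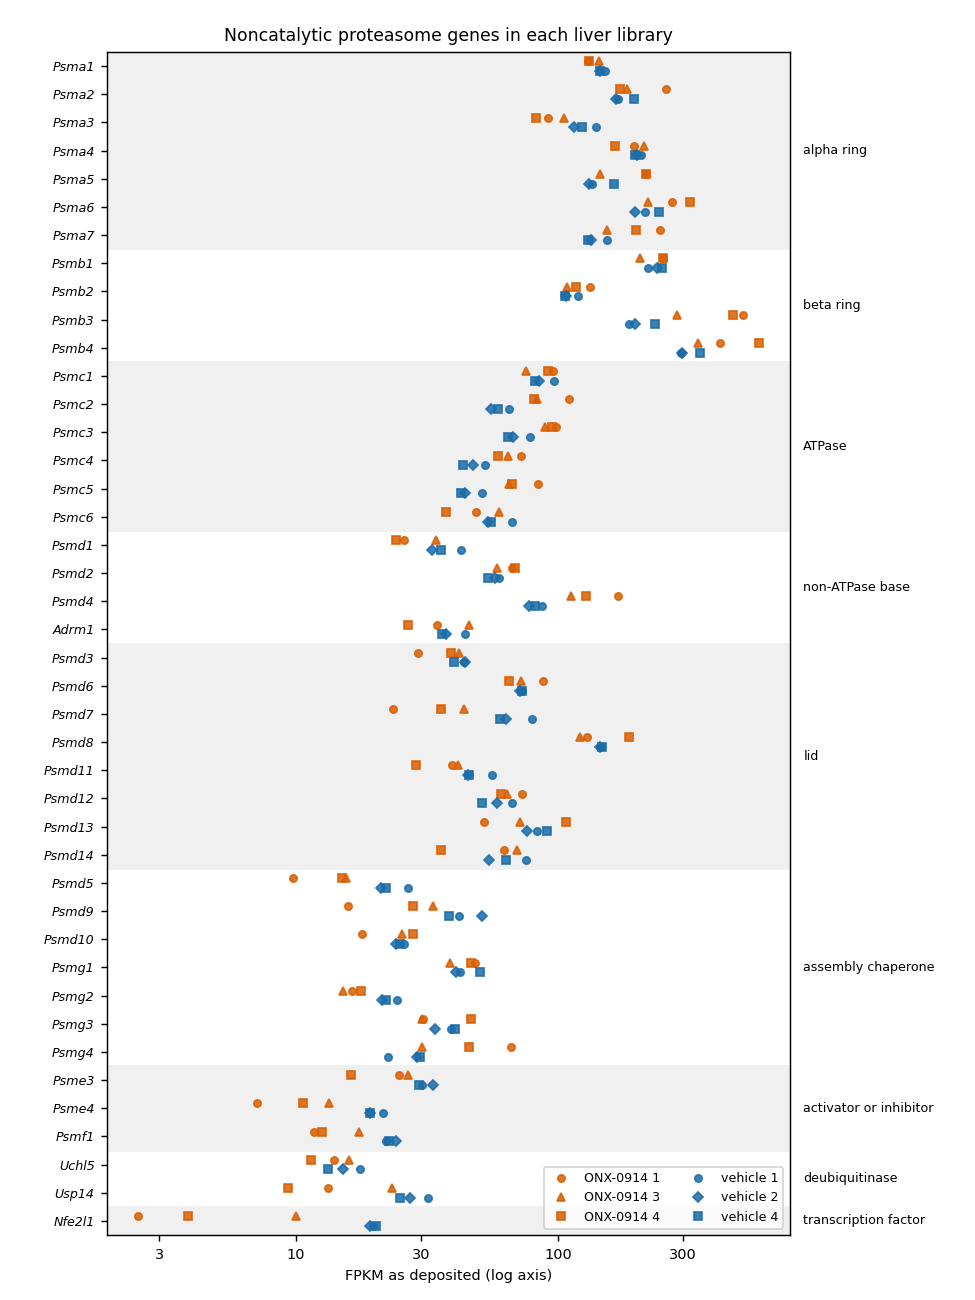
FPKM of each of the 42 genes (log axis) in the 3 ONX-0914 libraries (orange, upper row of each gene) and the 3 vehicle libraries (blue, lower row), with genes grouped by role and symbols marking replicates. Nfe2l1 lies at 2.50 to 10.0 FPKM with ONX-0914 and at 19.1 to 20.2 FPKM with vehicle, and the core genes lie at 82.8 to 584 FPKM with ONX-0914 and at 106 to 348 FPKM with vehicle.

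Groups did not overlap for 20 of the 42 genes as deposited. In 8 of them, or 19%, each ONX-0914 library was above each vehicle library, where 4.93% of all genes were so placed. In 12, or 28.6%, each was below, where 53.5% of all genes were so placed. With median ratio scaling 33 lay above and 1 below, where 24.6% and 23.3% of all genes did. ONX-0914 3 was the mildest library. Among the 36 members whose differences from the vehicle mean had the same sign in ONX-0914 1 and 4, it had that sign in 27. In 26 of the 36 its difference was the smallest in size. ONX-0914 3 was mildest over all genes tested too, with median log2 differences of -0.74, -0.38 and -0.79 in the ONX-0914 libraries 1, 3 and 4. The counts were not made over all genes, so they describe the library rather than the members.

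Nfe2l1, on the minus strand of chromosome 11 from 96817414 to 96829968 of GRCm38, encodes the factor that in mammals drives proteasome genes when proteolysis falls short. It was at 2.50, 10.0 and 3.86 FPKM in the ONX-0914 libraries 1, 3 and 4, against 19.8, 19.1 and 20.2 FPKM in the vehicle libraries 1, 2 and 4. The vehicle libraries were nearly alike, and all 3 ONX-0914 libraries lay below them, ONX-0914 3 least so. Its mean was 5.46 ± 4.00 FPKM with ONX-0914 and 19.7 ± 0.558 FPKM with vehicle (SD, n = 3 each). In limma the difference was -1.85 ± 0.39 (log2 fold change and SE, adjusted p = 0.00629), at percentile 5.32 of the genes tested. Median ratio scaling gave -1.14 (adjusted p = 0.0341, percentile 6.60). Removing the length trend left -0.95 (adjusted p = 0.0419, percentile 8.40). Leaving out each library gave values between -2.33 and -1.50. In ONX-0914 3 alone against vehicle, where 1 library is taken to vary like those of the vehicle group, it was -0.91 (adjusted p = 0.0107). Over all settings its adjusted p ran between 8.50e-05 and 0.0419.

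The 11 noncatalytic core genes had the highest FPKM of the subunit groups and a median log2 fold change of 0.19 as deposited, and Psmb3 alone was called there. Psmb3, which encodes the beta-3 subunit, lies on chromosome 11 from 97703399 to 97713500. It was at 507, 284 and 467 FPKM in the ONX-0914 libraries 1, 3 and 4, against 187, 198 and 236 FPKM in the vehicle libraries 1, 2 and 4. The groups did not overlap, and ONX-0914 3 was nearest to vehicle. Means were 419 ± 119 FPKM with ONX-0914 and 207 ± 25.7 FPKM with vehicle (SD, n = 3 each), which limma put at 0.98 ± 0.25 on the log2 scale (SE, adjusted p = 0.0127) and at 1.80 after median ratio scaling. Psmb4, the beta-7 gene, averaged 447 ± 124 FPKM with ONX-0914 and 314 ± 29.9 FPKM with vehicle and was not called (0.48, adjusted p = 0.112). Psmb1 and Psmb2, the beta-6 and beta-4 genes, differed little as deposited (log2 fold changes of -0.0025 and 0.10, adjusted p = 0.992 and 0.664). Psmb1 was at 253, 206 and 252 FPKM in the ONX-0914 libraries 1, 3 and 4, against 221, 238 and 251 FPKM in the vehicle libraries 1, 2 and 4, with overlap.

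No alpha ring gene passed the test as deposited. Psma7 had the highest log2 fold change among the 7, at 246, 155 and 199 FPKM in the ONX-0914 libraries 1, 3 and 4 against 154, 133 and 130 FPKM in the vehicle libraries 1, 2 and 4. Its ONX-0914 3 value lay just above vehicle 1, and the log2 fold change of 0.50 had an adjusted p of 0.0856. Psma3 had the lowest, at 92.0, 106 and 82.8 FPKM in the ONX-0914 libraries 1, 3 and 4 against 140, 115 and 124 FPKM in the vehicle libraries 1, 2 and 4. All of its ONX-0914 values were below vehicle (-0.43, adjusted p = 0.0912), and the sign turned after median ratio scaling (0.38, adjusted p = 0.172). The alpha subunits share 1 fold and sit in fixed numbers in each ring. The spread of their transcripts was wider with ONX-0914, by little in ONX-0914 3. The highest was 2.97, 2.09 and 3.86 times the lowest in the ONX-0914 libraries 1, 3 and 4. In the vehicle libraries 1, 2 and 4 it was 1.59, 1.75 and 1.96 times the lowest. After median ratio scaling 6 of the 7 were called higher, all but Psma3, where 14.3% of all genes were. Without the length trend Psma2 and Psma7 were called higher, where 9.61% of all genes were. The log2 fold changes of Psma1, Psma2, Psma4, Psma5 and Psma6 lay between -0.12 and 0.40 as deposited.

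The 6 ATPase genes, whose products form the hexameric motor of the 19S base, had the highest median log2 fold change of the subunit groups, 0.43 as deposited. Psmc5, on chromosome 11 from 106256154 to 106263120 (plus strand), was at 83.7, 64.9 and 66.7 FPKM in the ONX-0914 libraries 1, 3 and 4, against 51.3, 44.3 and 42.5 FPKM in the vehicle libraries 1, 2 and 4. Psmc2, on chromosome 5 from 21785283 to 21803787 (plus strand), was at 110, 83.5 and 81.3 FPKM in the ONX-0914 libraries 1, 3 and 4, against 64.9, 55.5 and 59.0 FPKM in the vehicle libraries 1, 2 and 4. In both genes each ONX-0914 library was above each vehicle library. Limma gave 0.62 ± 0.20 for Psmc5 (log2 fold change and SE, adjusted p = 0.0315) and 0.60 ± 0.20 for Psmc2 (adjusted p = 0.0374). Psmc3 and Psmc4 were placed the same way without overlap and missed the threshold as deposited (0.42 and 0.44, adjusted p = 0.0873 and 0.0913). Both passed it without the length trend (0.87 and 0.72, adjusted p = 0.0146 and 0.0236). Psmc1 overlapped between groups (0.0011), and Psmc6 was lowest of the 6 (-0.29, adjusted p = 0.316), at 48.7, 59.7 and 37.5 FPKM in the ONX-0914 libraries 1, 3 and 4 and 66.6, 54.1 and 55.6 FPKM in the vehicle libraries 1, 2 and 4.

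Among the 4 non-ATPase base genes only Psmd4 was called as deposited. It encodes RPN10, a ubiquitin receptor at the junction of base and lid. Psmd4, on chromosome 3 from 95032694 to 95042614 (minus strand), was at 169, 113 and 128 FPKM in the ONX-0914 libraries 1, 3 and 4, against 87.2, 77.4 and 82.0 FPKM in the vehicle libraries 1, 2 and 4. All ONX-0914 libraries were above vehicle, with means of 137 ± 29.1 and 82.2 ± 4.87 FPKM (SD, n = 3 each) for ONX-0914 and vehicle. Limma put the rise at 0.71 ± 0.21 (log2 fold change and SE, adjusted p = 0.0227). The other two ubiquitin receptor genes were not called as deposited, Adrm1 (RPN13) at -0.16 (adjusted p = 0.607) and Psmd2 (RPN1) at 0.17 (adjusted p = 0.469). Both were called higher after median ratio scaling (0.64 and 0.98, adjusted p = 0.0415 and 0.0239), and Psmd2 also without the length trend (0.91, adjusted p = 0.0245). The scaffold gene Psmd1 (RPN2) had the lowest log2 fold change of the 4 (-0.40, adjusted p = 0.166), at 25.9, 34.4 and 24.1 FPKM in the ONX-0914 libraries 1, 3 and 4 against 42.6, 33.2 and 35.8 FPKM in the vehicle libraries 1, 2 and 4, with overlap.

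Psmd7 was the only one of the 8 lid genes called as deposited. Psmd7 encodes RPN8, the partner of the deubiquitinating subunit RPN11. The gene lies on chromosome 8 from 107580381 to 107588464 (minus strand). It was at 23.5, 43.8 and 35.9 FPKM in the ONX-0914 libraries 1, 3 and 4, against 79.4, 63.2 and 60.2 FPKM in the vehicle libraries 1, 2 and 4. All ONX-0914 libraries lay below vehicle, and limma gave -0.99 ± 0.26 (log2 fold change and SE, adjusted p = 0.0148). The call was lost after median ratio scaling (-0.18, adjusted p = 0.572) and without the length trend (-0.63, adjusted p = 0.091). Its partner gene Psmd14 (RPN11) overlapped between groups, at 62.3, 70.0 and 35.7 FPKM in the ONX-0914 libraries 1, 3 and 4 and 75.8, 54.7 and 63.6 FPKM in the vehicle libraries 1, 2 and 4. Psmd11 (RPN6) lay below vehicle without overlap and missed the threshold (-0.43, adjusted p = 0.137). Psmd3 (RPN3), Psmd6 (RPN7) and Psmd8 (RPN12) were at -0.23, 0.04 and -0.02. The highest log2 fold change in the lid was that of Psmd12 (RPN5), 0.16 as deposited (adjusted p = 0.511) and 0.97 after median ratio scaling (adjusted p = 0.0209). Its groups overlapped, at 72.8, 64.0 and 60.8 FPKM in the ONX-0914 libraries 1, 3 and 4 against 66.9, 58.5 and 51.3 FPKM in the vehicle libraries 1, 2 and 4. Psmd13 (RPN9) was scattered among the ONX-0914 libraries, at 52.4, 71.7 and 108 FPKM in the ONX-0914 libraries 1, 3 and 4 against 83.4, 76.1 and 90.5 FPKM in the vehicle libraries 1, 2 and 4. The median over the 8 lid genes was -0.20 as deposited and 0.61 after median ratio scaling.

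**Figure D2:**
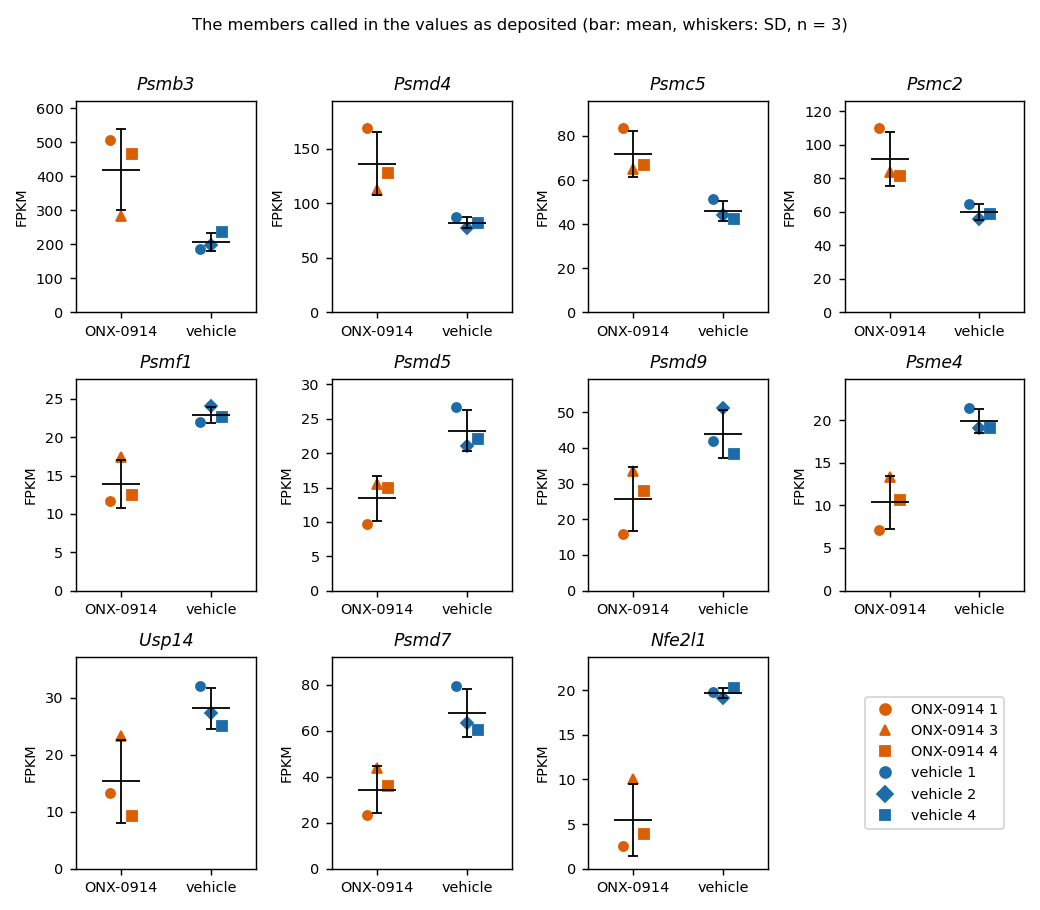
FPKM by library of the 11 genes called in the values as deposited, ONX-0914 left and vehicle right, with the mean (bar) and SD (whiskers, n = 3). The 4 rises are in the top row; of the 7 falls, all but Nfe2l1 lost their call after median ratio scaling, where Psmf1 and Psmd5 had log2 fold changes of 0.07 and 0.0034.

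A ratio of 2 medians within a library does not change with the library's scaling. The median ATPase transcript was 1.57, 1.15 and 1.48 times the median of the 12 lid and non-ATPase base transcripts in the ONX-0914 libraries 1, 3 and 4, against 0.941, 0.946 and 1.00 times in the vehicle libraries 1, 2 and 4. These values did not overlap, and ONX-0914 3 was the closest to vehicle. Without the length trend the log2 difference of the 2 medians was 0.45, 0.09 and 0.44 in the ONX-0914 libraries 1, 3 and 4, against -0.10, -0.08 and 0.0082 in the vehicle libraries 1, 2 and 4, still without overlap. The median core transcript was 3.54, 2.84 and 3.16 times the median 19S transcript in the ONX-0914 libraries 1, 3 and 4, against 2.53, 2.94 and 3.40 times in the vehicle libraries 1, 2 and 4, and these ranges overlapped. Spread within the core was wider with ONX-0914, though ONX-0914 3 was only just above vehicle 4. The SD of log2 FPKM among the 11 core genes was 0.72, 0.53 and 0.84 in the ONX-0914 libraries 1, 3 and 4. It was 0.38, 0.46 and 0.52 in the vehicle libraries 1, 2 and 4. Among the 19S genes this SD was 0.82, 0.50 and 0.83 in the ONX-0914 libraries 1, 3 and 4. It was 0.45, 0.49 and 0.52 in the vehicle libraries 1, 2 and 4, so the ranges overlapped through ONX-0914 3. In the lid and in the ATPases, too, ONX-0914 3 did not lie above all vehicle libraries. The spreads were not recomputed without the length trend. They were not taken over all genes either, so a widening particular to these genes is not shown. No test was run on these ratios and SDs, since they summarise genes chosen with earlier results known.

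**Figure D3:**
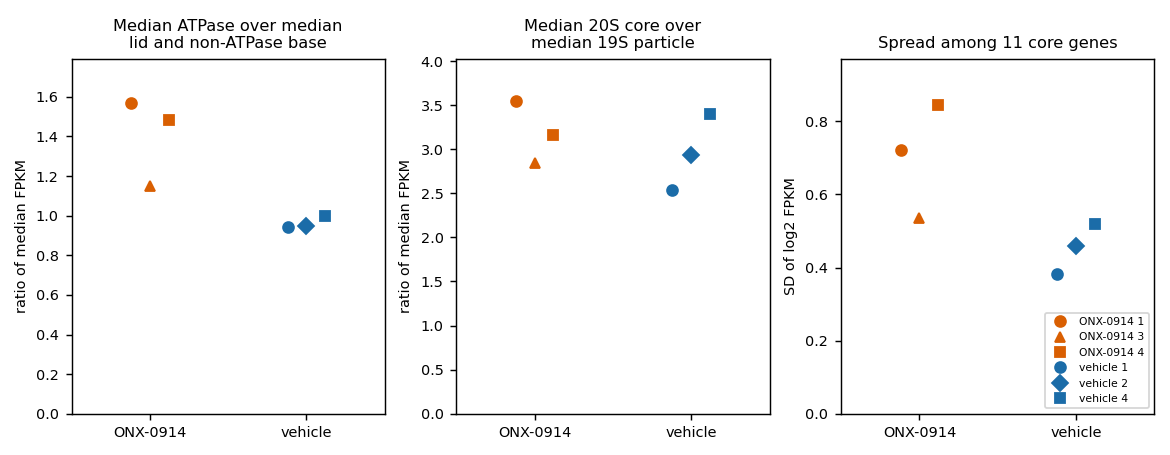
Within-library measures for the 3 ONX-0914 libraries (orange, left) and the 3 vehicle libraries (blue, right): the ratio of median ATPase to median lid and non-ATPase base FPKM, the ratio of median core to median 19S FPKM, and the SD of log2 FPKM among the 11 core genes. The first and last measures lie higher in each ONX-0914 library than in any vehicle library, the last only just so in ONX-0914 3. The middle one overlaps.

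Assembly chaperones bring the subunits together and leave the finished particle. Of 7 such genes, Psmd5 and Psmd9, which encode base chaperones, fell as deposited, where 43.5% of all genes tested were called lower. Psmd5 was at 9.71, 15.5 and 15.0 FPKM in the ONX-0914 libraries 1, 3 and 4, against 26.7, 21.1 and 22.0 FPKM in the vehicle libraries 1, 2 and 4 (limma log2 fold change -0.77 ± 0.25 SE, adjusted p = 0.0329). Psmd9 was at 15.9, 33.4 and 28.0 FPKM in the ONX-0914 libraries 1, 3 and 4, against 42.04, 51.3 and 38.4 FPKM in the vehicle libraries 1, 2 and 4 (-0.80 ± 0.29 SE, adjusted p = 0.0467). Neither gene overlapped between groups, where 53.5% of all genes lay below vehicle without overlap. After median ratio scaling both stood near 0 (0.0034 and -0.0043). Exons of Psmd9 overlap a gene on the other strand, and whether counting used strand is not given, so its value is uncertain. Psmd10 (gankyrin), also a base chaperone, overlapped (-0.09, adjusted p = 0.757).

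The core chaperones Psmg1 and Psmg2 encode a pair that helps to build the alpha ring, and so do Psmg3 and Psmg4. Psmg4 was at 65.9, 30.2 and 45.6 FPKM in the ONX-0914 libraries 1, 3 and 4, against 22.5, 29.0 and 29.9 FPKM in the vehicle libraries 1, 2 and 4, the highest log2 fold change among the chaperones (0.72, adjusted p = 0.0687). Its ONX-0914 3 value exceeded vehicle 4 by a small margin, and it was called after median ratio scaling (1.51, adjusted p = 0.0244) but not without the length trend (0.36, adjusted p = 0.196). Its partner Psmg3 was at -0.10 (adjusted p = 0.73). Psmg2 had lower values in all ONX-0914 libraries, 16.3, 15.1 and 17.8 FPKM in the ONX-0914 libraries 1, 3 and 4 against 24.3, 21.3 and 22.1 FPKM in the vehicle libraries 1, 2 and 4, and was not called (-0.44, adjusted p = 0.112). Psmg1 was at -0.0044.

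Of the 3 genes whose products activate or inhibit the core, Psme4 and Psmf1 fell as deposited, where 43.5% of all genes tested were called lower. Each of the 3 lay below vehicle without overlap, where 53.5% of all genes did. Psme4 (PA200), a nuclear activator of the core, was at 7.13, 13.3 and 10.7 FPKM in the ONX-0914 libraries 1, 3 and 4, against 21.5, 19.2 and 19.1 FPKM in the vehicle libraries 1, 2 and 4 (limma log2 fold change -0.92 ± 0.26 SE, adjusted p = 0.0211). Psmf1 (PI31), described as an inhibitor of the core in vitro, was at 11.7, 17.4 and 12.5 FPKM in the ONX-0914 libraries 1, 3 and 4, against 22.1, 24.0 and 22.7 FPKM in the vehicle libraries 1, 2 and 4 (-0.70 ± 0.23 SE, adjusted p = 0.0341). The activator gene Psme3 (PA28 gamma) also lay below vehicle without overlap and was not called (-0.47, adjusted p = 0.137), at 24.8, 26.8 and 16.3 FPKM in the ONX-0914 libraries 1, 3 and 4 against 30.3, 33.4 and 29.5 FPKM in the vehicle libraries 1, 2 and 4. After median ratio scaling these were at -0.15, 0.07 and 0.32, and none was called.

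The deubiquitinase gene Usp14, whose product trims ubiquitin at the 19S base, was at 13.3, 23.3 and 9.33 FPKM in the ONX-0914 libraries 1, 3 and 4, against 32.0, 27.4 and 25.03 FPKM in the vehicle libraries 1, 2 and 4. It fell as deposited (-0.92 ± 0.32 SE, limma adjusted p = 0.0389) and was at -0.14 after median ratio scaling (adjusted p = 0.671). Its exons also overlap a gene on the other strand, with the same uncertainty. Uchl5 (UCH37), the other deubiquitinase, overlapped between groups (-0.15, adjusted p = 0.624), at 13.97, 15.9 and 11.45 FPKM in the ONX-0914 libraries 1, 3 and 4 against 17.6, 15.1 and 13.2 FPKM in the vehicle libraries 1, 2 and 4, and after median ratio scaling it was called higher (0.62, adjusted p = 0.0493).

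**Figure D4:**
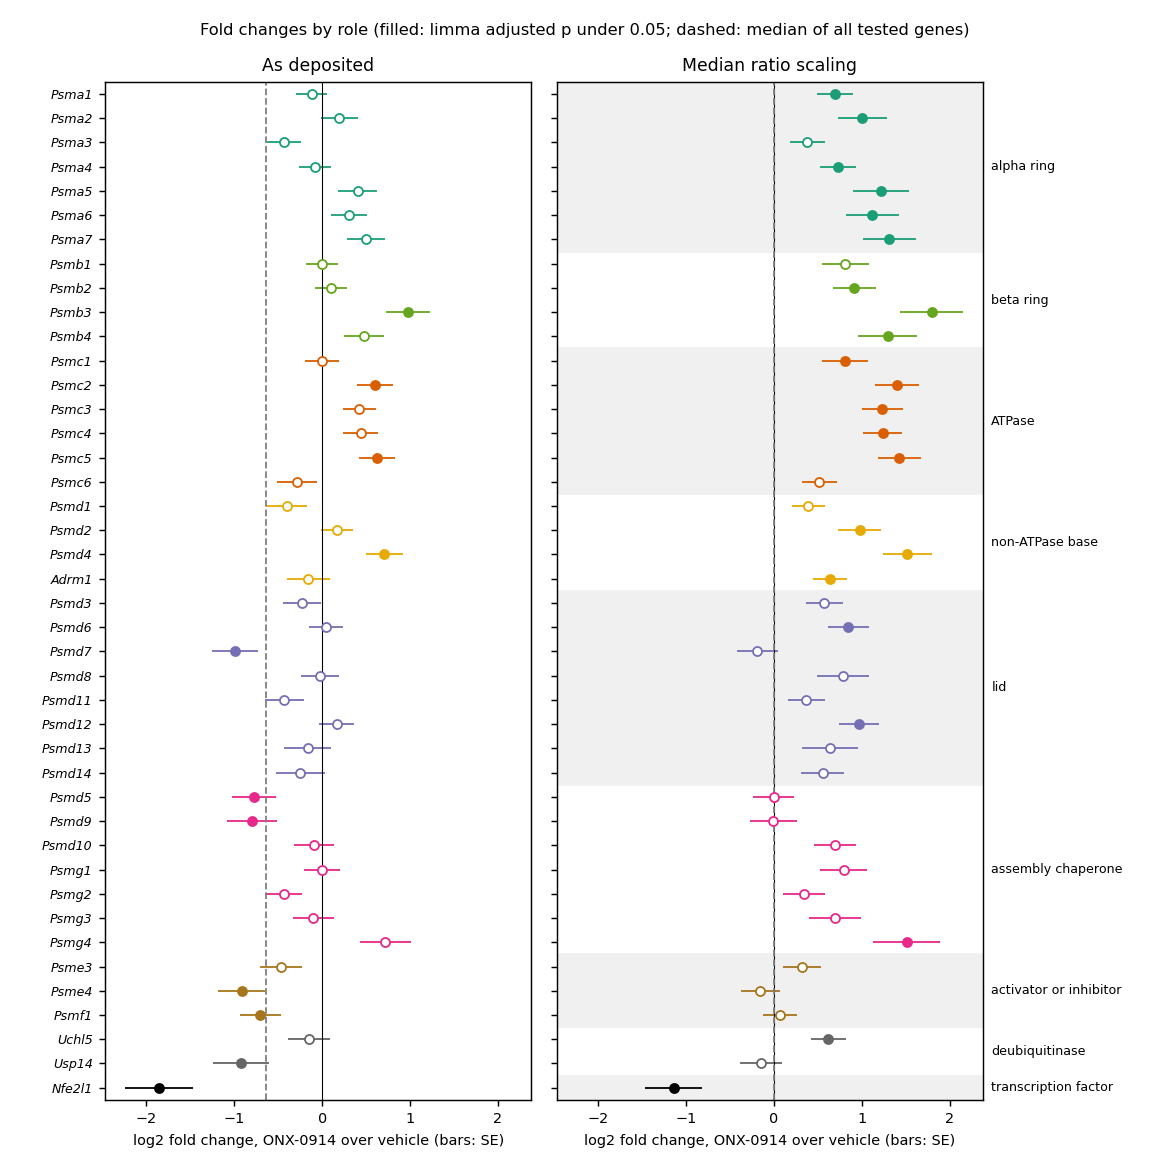
Log2 fold change of ONX-0914 over vehicle with its SE for each of the 42 genes, as deposited (left) and after median ratio scaling (right); filled points passed limma at an adjusted p under 0.05, and the dashed line is the median of all 10743 genes tested. As deposited 4 genes are called higher and 7 lower; after scaling 21 are called higher and Nfe2l1 alone lower.

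Fold changes of the members followed transcript length, taken as that of the longest coding transcript in GENCODE M21, which need not be the form expressed in liver. Across the 42 genes the log2 fold change correlated with log2 length at r = -0.69 (Spearman's rho -0.62), and across the 10480 tested genes with a length at r = -0.38 (rho -0.40). Genes of a library share its preparation and are not independent, so these are descriptions. The 16 members under 1500 bases had a median log2 fold change of 0.20, with 2 called higher and none lower (12.5% and 0%). Of all 1708 tested genes under 1500 bases 7.67% were called higher and 15.7% lower, with a median of -0.02. The 26 longer members had a median of -0.24, with 2 called higher and 7 lower (7.69% and 26.9%). Of all 8772 longer genes 1.48% were called higher and 49.4% lower, with a median of -0.74. The members' median length was 1770.5 bases, against 2906 bases over all tested genes, and the median was 1688 bases for the ATPases and 1969 bases for the lid and non-ATPase base. Without the length trend the correlation over the members was -0.17. The part of length in the members' fold changes was otherwise not tested.

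**Figure D5:**
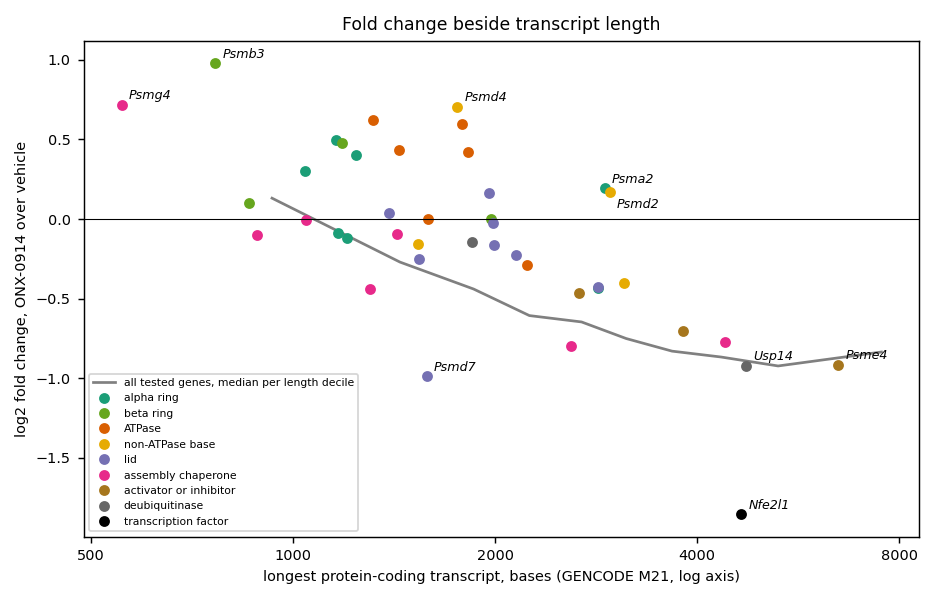
Log2 fold change of ONX-0914 over vehicle as deposited against the longest protein-coding transcript in bases (log axis) for the 42 genes, coloured by role, with the median of all tested genes per length decile in grey. Nfe2l1 at 4654 bases and Psmd7 at 1581 bases lie well below the grey line, and Psmd4 and Psmb3 lie above it.

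Promoter sequence was examined for the antioxidant response elements that NFE2L1 binds. RefSeq windows of GRCm38.p6, from 250 bases before to 50 bases after a start site, matched 35 of the 42 genes, all but Psmb1, Psmb2, Psmc3, Psmd3, Psmd7, Usp14 and Psmg2. On either strand, the core element TGACNNNGC was in the windows of 6 of these 35 genes (17.1%), against 14% of all 27025 genes with a window. The looser form TGANNNNGC, which contains the core form, was in 20 (57.1%), against 45%, and the CCAAT box, bound by the factor NF-Y, in 14 (40%), against 41.1%. The 6 genes with the core element were Psmc6 (TGACTTAGC), Psmd9 (TGACCCCGC), Psmd12 (TGACACAGC), Psme4 (TGACGCTGC), Adrm1 (TGACACAGC) and Uchl5 (TGACGGCGC). As deposited, Psmd9 and Psme4 fell and the other four were not called. First windows of the 4 genes that rose and of Nfe2l1 are shown, since these were called as deposited, after median ratio scaling and without the length trend alike. Each is printed 5′ to 3′ on the gene's strand with CCAAT and its reverse complement in capitals, and none of them holds TGACNNNGC. Psmb3 is chr11:97703184-97703483 (plus strand), Psmc2 chr5:21785025-21785324 (plus), Psmc5 chr11:106255935-106256234 (plus), Psmd4 chr3:95042565-95042864 (minus) and Nfe2l1 chr11:96829919-96830218 (minus). A match of letters is a description and not a site shown to be bound.
Psmb3: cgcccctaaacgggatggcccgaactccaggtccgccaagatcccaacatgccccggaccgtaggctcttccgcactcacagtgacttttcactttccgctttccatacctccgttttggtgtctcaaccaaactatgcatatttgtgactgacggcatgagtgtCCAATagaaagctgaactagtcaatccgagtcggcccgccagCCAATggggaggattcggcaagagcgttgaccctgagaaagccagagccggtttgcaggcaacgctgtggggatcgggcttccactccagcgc
Psmc2: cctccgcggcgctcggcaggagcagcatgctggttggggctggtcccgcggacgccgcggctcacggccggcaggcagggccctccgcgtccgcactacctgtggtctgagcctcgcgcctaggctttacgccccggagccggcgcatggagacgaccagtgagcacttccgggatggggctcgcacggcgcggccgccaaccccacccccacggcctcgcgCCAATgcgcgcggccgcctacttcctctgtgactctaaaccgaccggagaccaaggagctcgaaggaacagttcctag
Psmc5: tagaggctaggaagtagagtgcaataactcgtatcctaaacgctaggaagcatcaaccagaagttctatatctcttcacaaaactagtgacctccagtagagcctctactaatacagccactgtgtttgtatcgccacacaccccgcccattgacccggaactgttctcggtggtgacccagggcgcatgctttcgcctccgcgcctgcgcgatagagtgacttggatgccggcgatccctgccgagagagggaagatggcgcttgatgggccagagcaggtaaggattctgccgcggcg
Psmd4: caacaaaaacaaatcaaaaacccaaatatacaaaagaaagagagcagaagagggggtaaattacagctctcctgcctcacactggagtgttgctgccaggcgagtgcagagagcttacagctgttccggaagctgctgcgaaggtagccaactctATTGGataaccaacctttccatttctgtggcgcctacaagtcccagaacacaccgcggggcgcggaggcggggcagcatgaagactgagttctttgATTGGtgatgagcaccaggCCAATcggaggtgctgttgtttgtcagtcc
Nfe2l1: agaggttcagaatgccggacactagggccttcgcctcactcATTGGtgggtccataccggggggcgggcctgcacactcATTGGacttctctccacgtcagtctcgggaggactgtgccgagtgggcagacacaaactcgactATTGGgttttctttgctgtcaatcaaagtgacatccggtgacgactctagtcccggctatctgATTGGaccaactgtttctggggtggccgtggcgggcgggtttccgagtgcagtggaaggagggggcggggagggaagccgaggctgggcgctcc

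The first Nfe2l1 window holds 4 CCAAT boxes, Psmd4 3, Psmb3 2 and Psmc2 1, while the Psmc5 window, also of a gene that rose, holds 0. Nfe2l1 has 5 windows, some of them overlapping, with 4, 0, 6, 4 and 2 boxes. A second Psmc2 window holds 0.

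Other proteasome genes were read from lists of the pathway. Of 8 catalytic and immunoproteasome genes, including the activator genes Psme1 and Psme2, Psmb5 and Psmb6 rose as deposited and none fell, where 2.56% of all genes were called higher, with a list median of 0.39. Psmb3, with 0.98, thus lay between Psmb5 (0.94) and Psmb6 (1.111). Psmb7 (0.40), Psmb8 (0.12), Psmb9 (-0.36) and Psmb10 (0.32) were not called, with limma adjusted p of 0.133, 0.688, 0.253 and 0.24. After median ratio scaling 6 of the 8 were called higher, where 14.3% of all genes were.

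Maturation and adaptor genes lay on both sides of vehicle, and as deposited only falls were called. Pomp, the chaperone of 20S maturation, averaged 488 ± 62.9 FPKM with ONX-0914 and 389 ± 22.4 FPKM with vehicle (SD, n = 3 each), and Sem1, the smallest lid subunit, 495 ± 102 FPKM with ONX-0914 and 346 ± 22.5 FPKM with vehicle. Groups did not overlap in either, and neither was called as deposited (0.32 and 0.50, limma adjusted p = 0.178 and 0.071). Of the 9 tested genes of that list 3 fell and none rose, where 43.5% of all genes were called lower. The 3 were Ube3c, a proteasome-bound ubiquitin ligase (-1.97, adjusted p = 0.00355), Zfand2a, a stress-induced proteasome adaptor (-1.82, adjusted p = 0.00165), and Ipo9, an importin (-1.38, adjusted p = 0.00927). Ube3c and Zfand2a were also called lower after median ratio scaling (-1.33 and -1.22).

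Genes that process or turn over NFE2L1 were read beside it. Of 12 tested, 7 fell as deposited and none rose, with a median log2 fold change of -0.88, where 43.5% of all genes were called lower and their median was -0.64. Nploc4, a cofactor of the p97 segregase, was at 1.45, 7.17 and 1.75 FPKM in the ONX-0914 libraries 1, 3 and 4, against 16.4, 13.6 and 17.6 FPKM in the vehicle libraries 1, 2 and 4 (limma log2 fold change -2.14 ± 0.43 SE, adjusted p = 0.00553). Ddi2, the protease that cleaves NFE2L1, was at 3.20, 15.6 and 2.54 FPKM in the ONX-0914 libraries 1, 3 and 4, against 24.6, 23.7 and 24.7 FPKM in the vehicle libraries 1, 2 and 4 (-2.01, adjusted p = 0.0127). In both, as in Nfe2l1, ONX-0914 3 was the ONX-0914 library nearest to vehicle. Sel1l (-1.81), Hcfc1 (-0.96), Btrc (-0.96), Ogt (-0.90) and Ngly1 (-0.87) also fell. After median ratio scaling only Nploc4 of the list was called lower (-1.48, limma adjusted p = 0.0244), and Ufd1 was called higher (0.73). Of all genes 13.7% and 14.3% were then called lower and higher.

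Ubiquitin genes and the shuttle receptors that carry substrates to the 19S base formed the last list, in which only Ubb was called higher as deposited. Ubb, a polyubiquitin gene, rose to 753, 641 and 530 FPKM in the ONX-0914 libraries 1, 3 and 4, against 338, 357 and 358 FPKM in the vehicle libraries 1, 2 and 4 (limma log2 fold change 0.85 ± 0.19 SE, adjusted p = 0.00839). Of the 12 genes of the list 7 fell, where 43.5% of all genes were called lower, among them the shuttle genes Rad23b (-1.65), Ubqln1 (-1.52) and Ubqln2 (-1.37), the autophagy receptor Nbr1 (-1.57) and the ubiquitin-activating enzyme Uba1 (-0.91). Rad23b was also called lower after median ratio scaling (-0.85) and without the length trend (-0.79). Ubb was called higher in both of these settings.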

How the data were processed

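The 6 liver libraries were made from total RNA by mRNA enrichment, per the labels' protocols. Per the submitters' processing notes, HISAT2 2.0.1, featureCounts 1.6.0, edgeR, cutadapt 1.11 and FastQC 0.11.5 were used, with builds GRCm38 and mm10; the sources used here do not give roles, annotation or strand setting. The authors deposited FPKM with 2 decimals, a unit taken from how the values behave. Precision is limited by 3 libraries per group.

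Genes above 1 FPKM in at least 3 libraries (10743) were tested on log2(FPKM + 1), which understates changes of low genes, with limma 3.58.1 in R 4.3.3, a variance trend, no block, two-sided, with Benjamini-Hochberg adjustment over all genes tested. The fit was tested on simulated data in which both groups varied like vehicle and few genes changed. Those data lack the wider spread of the ONX-0914 libraries and the shifted median gene seen here. Median ratio factors used the 12250 genes above 0 in all libraries. A lowess curve (span 0.3) over log2 length was fitted per library to log2 values minus the vehicle mean and subtracted for the 97.6% of genes with a length. Members and lists were chosen with earlier results of these data known. All members are accounted for; in full are those called without overlap, Nfe2l1 and the highest and lowest of each role, with up to 6 called genes per other list. Coordinates are from GENCODE M21 (GRCm38). One gene of the other lists is counted but not reported here.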

Additional observations from a re-analysis of the deposited data

How the results depend on the processing

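The number of members higher and lower was 4 and 7 as deposited. It was 21 and 1 after median ratio scaling, 8 and 1 after quantile normalization, 10 and 1 without the length trend, and 0 and 1 with ONX-0914 3 alone against vehicle. Median ratio scaling without ONX-0914 3, chosen after seeing the data, gave 30 and 1. Leaving out each library gave 0 to 10 higher and 1 to 11 lower. The members' median log2 fold change, -0.09 as deposited, was 0.71, 0.31, 0.30, -0.019 and 0.89 in the same 5 alternatives and between -0.10 and -0.037 with a library left out. Scaling by median ratio and removing the length trend moved the medians to 1.01 and 0.50 for the core, 1.24 and 0.78 for ATPases, and 0.64 and 0.33 for lid and non-ATPase base, and scaling moved the chaperones to 0.70. Scaling moved the median of all genes to 0.0034, against -0.64 as deposited, and 20 members that were negative as deposited became positive. They include Psma1 (0.69), Psma4 (0.73), Adrm1 (0.64) and Uchl5 (0.62), each then called higher, and Psmd5 (0.0034) and Psmf1 (0.072), no longer called lower. The signs of Psmd5 and Psmf1 also turned without the length trend (0.12 and 0.15), a setting that likewise moved the median of all genes, to 0.022. After scaling 14.3% and 13.7% of all genes were called higher and lower. Higher were 6 of 8 catalytic and immunoproteasome genes and 4 of 9 adaptor genes. Of the NFE2L1 processing genes 1 of 12 was higher, and of the ubiquitin and shuttle genes 4 of 12. Lower were 2 adaptor genes, 1 of NFE2L1 processing and 3 ubiquitin and shuttle genes. Without the length trend 9.61% and 11.7% of all genes were called higher and lower. Higher were 2 catalytic and immunoproteasome genes, 3 adaptor genes and 2 ubiquitin and shuttle genes of the same lists. Lower were 2 adaptor genes, 1 gene of NFE2L1 processing and 2 ubiquitin and shuttle genes. The cause was not tested. A pseudocount of 0.1, no filter and no variance trend left the counts within 1.5 times.

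Numbers 1 and 4 occur in both groups. The deviations from the group means correlated at 0.0011 and 0.13 in these pairs, where the other pairs across groups ran from -0.17 to 0.10. With 3 libraries per group these correlations cannot tell whether equal numbers mark paired libraries. With the replicate block 7 members were higher and 9 lower, including the 4 and 7 called without it. Absolute depth is unknown. Exons of Psmd9 and Usp14 overlap a gene on the other strand, as do those of Psma4, Psma5, Psmc3, Psmd1, Psmd3 and Psmd13, and Psmd1 and Psmg3 overlap one on the same strand, so their values are uncertain. Reads shared with pseudogene copies were not examined.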
